A study of Mus musculus with 39 samples.

Results

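The extended Nanog locus on mouse chromosome 6, chr6:122550000-122820000 in GRCm38, spans 270 kb and holds the genes Apobec1, Gdf3, Dppa3, Nanog and Slc2a3. All peaks of 36 deposited CUT&Tag peak lists that overlapped this interval were taken, 202 of 432096, and each was assigned to whichever of the 5 genes had its transcription start site (TSS) nearest to the midpoint of the peak. Slc2a3 received 104 peaks, Dppa3 47, Nanog 25, Apobec1 18 and Gdf3 8. For 49 of the 202 peaks a gene outside the 5 was closer, Foxj2 in 37 of these cases. The enhancers -45 and -5 kb from Nanog were overlapped by 20 peaks, which are counted here but not described further, and 182 peaks remained.

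The cells were naive extra-embryonic endoderm (nEnd), a culture derived from mouse embryonic stem cells that models the early primitive endoderm, carrying an OCT4-mCherry reporter and grown on a layer of fibroblast feeders. They were sorted by FACS into cells with OCT4-mCherry alone (Oct4+), cells with OCT4-mCherry and surface PDGFRA together (DP, double positive) and cells with PDGFRA alone (Pdgfra+), without any further treatment. H3K27ac, H3K4me1, H3K27me3 and H3K9me3 were profiled in 3 replicates of each population by CUT&Tag, in which an antibody brings a transposase to a histone mark so that the DNA around it is tagged and sequenced. All 3 populations came from the same reporter line, and the study describes the replicates as biological. The labels do not say which step separated them, and the p-values measure the spread between these libraries.

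H3K27ac is the acetylation found at active enhancers and promoters, H3K4me1 marks enhancers whether or not they are active, H3K27me3 is deposited by Polycomb repressive complex 2, and H3K9me3 marks heterochromatin. The Nanog neighbourhood is a well known cluster of genes expressed in pluripotent cells. NANOG is a homeobox factor of the naive epiblast, and GDF3 is a ligand of the TGF-beta family. DPPA3 (STELLA) protects DNA methylation in the early embryo. Slc2a3 encodes the neuronal and embryonic glucose transporter GLUT3, and Apobec1 encodes the cytidine deaminase that edits apolipoprotein B mRNA.

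In GENCODE, Apobec1 lies on the minus strand at chr6:122577792-122602444, Gdf3 on the minus strand at chr6:122605403-122610087, Dppa3 on the plus strand at chr6:122626410-122630272, Nanog on the plus strand at chr6:122707489-122714633 and Slc2a3 on the minus strand at chr6:122727809-122801640. Positions below are in kb from the Nanog TSS at base 122707568, with negative values on the Dppa3 side. On this scale the start sites of the principal transcripts lay at -105.2 (Apobec1), -97.5 (Gdf3), -81.2 (Dppa3) and 35.2 kb (Slc2a3), and a longer Slc2a3 isoform starts at 94.1 kb.

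Sequences are shown for the H3K27ac regions on which the comparison of populations turns, as 300 bases of the GRCm38 plus strand centred on the interval of highest signal in the library with the strongest maximum. Those at Gdf3, -12 kb and 94 kb were listed in Oct4+ libraries and in no other, and the one at 56 kb in all 9. The name 56 kb gives the middle of the stretch shared by all 9. The window printed for it lies at 57.2 to 57.5 kb, on the maximum of Pdgfra+ replicate 1, and the maxima of the 9 libraries lay between 55.24 and 57.72 kb. The window at 94 kb runs beyond the start of the long Slc2a3 isoform at base 122801640, and most of it lies upstream of the gene. Capitals mark a match on either strand to the octamer core TGCAAAT, the SOX motif CATTGTT, the motif AAGGTCA of nuclear receptors such as ESRRB, the KLF motif CACACCC, the GATA motif AGATAAG or the STAT motif TTCCNGGAA.
Gdf3 intron, chr6:122609241-122609540: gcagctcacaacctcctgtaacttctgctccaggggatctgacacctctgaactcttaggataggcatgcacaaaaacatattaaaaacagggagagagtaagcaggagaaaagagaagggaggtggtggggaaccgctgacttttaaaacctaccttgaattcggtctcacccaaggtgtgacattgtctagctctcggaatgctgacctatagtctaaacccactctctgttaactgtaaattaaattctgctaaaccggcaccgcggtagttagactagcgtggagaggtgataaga
Intergenic element at -12 kb, chr6:122695263-122695562: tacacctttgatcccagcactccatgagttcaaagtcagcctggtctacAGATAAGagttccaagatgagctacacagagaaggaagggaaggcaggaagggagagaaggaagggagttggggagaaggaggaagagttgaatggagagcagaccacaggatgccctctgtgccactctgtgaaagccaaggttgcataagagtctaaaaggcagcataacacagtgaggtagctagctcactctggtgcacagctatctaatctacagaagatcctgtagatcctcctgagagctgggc
Slc2a3 intron at 56 kb, chr6:122764728-122765027: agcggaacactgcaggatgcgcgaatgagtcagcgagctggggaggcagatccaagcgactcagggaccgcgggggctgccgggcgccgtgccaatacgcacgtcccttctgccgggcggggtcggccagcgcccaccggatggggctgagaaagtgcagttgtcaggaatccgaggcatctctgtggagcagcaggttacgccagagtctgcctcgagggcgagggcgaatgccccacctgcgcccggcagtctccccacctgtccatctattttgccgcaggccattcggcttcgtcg
The first exon of the long Slc2a3 isoform at 94 kb, chr6:122801541-122801840: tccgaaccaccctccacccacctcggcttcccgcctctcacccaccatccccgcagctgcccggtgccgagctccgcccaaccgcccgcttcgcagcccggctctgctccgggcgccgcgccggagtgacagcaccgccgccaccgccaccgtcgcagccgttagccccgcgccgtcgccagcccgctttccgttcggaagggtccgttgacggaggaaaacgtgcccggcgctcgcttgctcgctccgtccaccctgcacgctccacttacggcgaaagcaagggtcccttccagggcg

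A single match was present among these 4 windows, the GATA motif AGATAAG on the plus strand of the -12 kb element. It was held by 3.48% of the 112324 windows of this length around H3K27ac maxima of the Oct4+ libraries, in which the other motifs were found in 3.73% (octamer core), 4.06% (SOX), 6.89% (nuclear receptor), 8.70% (KLF) and 0.958% (STAT). At least 1 of the 6 motifs was present in 24.8% of these windows. The letters of the other 5 motifs do not occur in the 4 windows, which says nothing of the factors that bind there.

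The promoters of Nanog and Apobec1 are given as the 250 bases upstream of the RefSeq start (GRCm38.p6), in the direction of the gene, because the former carried H3K27ac and the latter carried none of the 4 marks. Of the 5 genes, 2 had an entry, and Gdf3, Dppa3 and Slc2a3 had none.
Nanog promoter, chr6:122707315-122707564, plus strand: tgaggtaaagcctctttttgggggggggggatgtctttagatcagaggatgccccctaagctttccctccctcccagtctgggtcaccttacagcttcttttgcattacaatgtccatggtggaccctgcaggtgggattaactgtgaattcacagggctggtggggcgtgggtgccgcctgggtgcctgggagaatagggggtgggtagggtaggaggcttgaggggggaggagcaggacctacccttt
Apobec1 promoter, chr6:122602445-122602694, minus strand: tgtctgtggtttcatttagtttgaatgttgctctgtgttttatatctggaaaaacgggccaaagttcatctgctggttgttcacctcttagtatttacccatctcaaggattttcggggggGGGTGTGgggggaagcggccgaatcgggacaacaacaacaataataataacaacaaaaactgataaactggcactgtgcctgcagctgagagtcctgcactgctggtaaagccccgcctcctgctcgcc

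The Nanog promoter held no exact match to the letters of the 6 motifs, which says nothing of the factors that bind there. The Apobec1 promoter held the KLF motif CACACCC on its reverse strand, from position -129 relative to the start. This motif was present in 7.22% of the promoters of 20150 protein-coding entries, and 18.6% held at least 1 of the 6. The Nanog promoter held 2 CpG dinucleotides and 57.6% G and C, the Apobec1 promoter 7 and 48%, and the median promoter 10 and 56%.

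**Figure D1:**
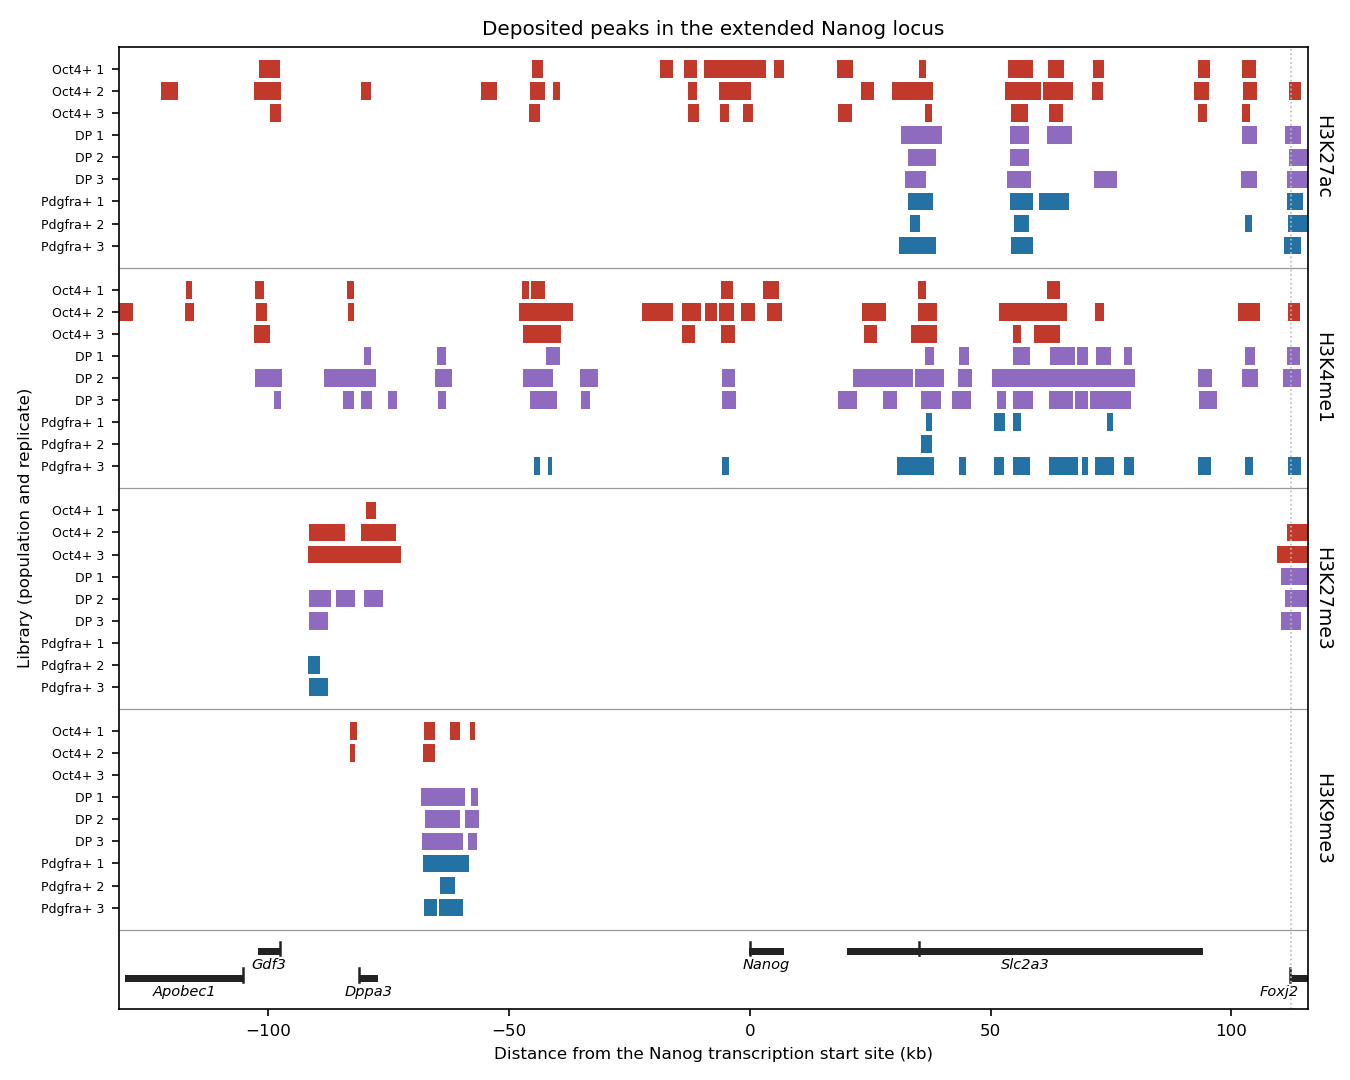
Peaks of the 36 lists (bars, coloured by population) against distance from the Nanog TSS in kb, with 1 row per library, grouped by mark. Black bars are genes, short vertical ticks their principal TSS and the dotted line the right end of the locus. The axis starts at the left of Apobec1, and peaks further left are not drawn. H3K27ac peaks left of 30.9 kb were listed in the red Oct4+ rows alone, and those around the principal Slc2a3 TSS and at 54.8 to 57.8 kb in all populations.

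Before the genes, the libraries themselves differed. The Oct4+ lists of H3K27ac had 8574 to 65131 peaks, the DP lists 3079 to 12244 and the Pdgfra+ lists 4792 to 7128, and the weakest peak that each list kept had a total signal of 5460 to 6021 in Oct4+, of 13683 to 14586 in DP, and of 8736 to 28044 in Pdgfra+. None of these signals is scaled to depth. Oct4+ replicate 3, with 8574 peaks for this mark, was shorter than DP replicates 1 and 3 (10957 and 12244). Sequencing depth per library is unknown. The sorted labels were checked on H3K27ac within 20 kb of marker TSSs. Pdgfra had no covered base in any Oct4+ library, 13.2, 0 and 13.8 kb in DP and 4.67 to 6.75 kb in the 3 Pdgfra+ libraries. The endoderm factor genes Gata6 and Sox17 had 6.48 to 10.04 and 2.75 to 4.64 kb in Pdgfra+, but Oct4+ replicates 1 and 2 also had 2.58 and 5.87 kb at Gata6 and 2.42 and 2.82 kb at Sox17, and only replicate 3 had none. Esrrb had 0 to 7.80 kb in Oct4+ and none elsewhere. Pou5f1, which encodes OCT4, had 7.19 to 13.8 kb in the Oct4+ libraries, 0 to 19.1 kb among DP and up to 6.88 kb among Pdgfra+. DP replicates 2 and 3 had none, although DP cells were sorted for the OCT4 reporter, and DP replicate 2 thus lacked H3K27ac at the genes of both sort markers. Of 5 fibroblast markers of the feeder layer, Col1a2 and Prrx1 had no H3K27ac peak in any library, and the summed length of the 5 was 2.98, 6.60 and 0 kb in the Oct4+ replicates and 0 kb in all DP and Pdgfra+ libraries.

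H3K27ac around Nanog was listed in Oct4+ alone. The Nanog promoter, from 1 kb upstream to 100 bases downstream of the TSS, was under an H3K27ac peak in 3 of 3 Oct4+, 0 of 3 DP and 0 of 3 Pdgfra+ libraries, a pattern shared by 0.771% of the 21911 protein-coding promoters. In Oct4+ replicate 1 the peak ran from -9.5 to 3.4 kb with a total signal (coverage summed over its bases) of 66965 and a maximum of 18 fragments, at percentile 99.8 of its own list. Replicate 2 had a peak from -6.4 to 0.2 kb with a total of 41366 and a maximum of 17, at percentile 99.3. Both of these also cover the -5 kb element, so their signal is not that of the promoter alone. In replicate 3 the promoter had a peak of its own from -1.4 to 0.6 kb, with a total of 9277 and a maximum of 10, at percentile 66.4.

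A smaller element upstream of Nanog was listed in the same libraries. From -12.8 to -11.0 kb all 3 Oct4+ libraries had an H3K27ac peak and none of the other 6 did. The total signals were 8272, 6486 and 8079 and the maxima 7, 9 and 8, at percentiles 51.7, 32.6 and 54.7, so the element was of middling rank in its lists and was listed in each replicate. These totals lay below the weakest peak kept by any DP list (13683 to 14586) or Pdgfra+ list (8736 to 28044). A peak of the same total could not have been listed there. The middles of the intervals of maximum signal lay at -11.79, -12.16 and -12.24 kb. H3K4me1 overlapped the merged region in 2 of 3 Oct4+ libraries and in no DP or Pdgfra+ library, and neither H3K27me3 nor H3K9me3 was listed there. Further H3K27ac peaks assigned to Nanog were each found in 1 Oct4+ library, at -40.9 to -39.4, -18.7 to -15.9 and 5.0 to 7.2 kb.

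H3K4me1 at Nanog reached further into DP than H3K27ac did. Beyond the -45 and -5 kb elements, 2 of 3 Oct4+ libraries had a peak over the gene body, from 2.7 to 6.7 kb in the merged region, and 1 had a peak over the promoter. DP replicates 2 and 3 instead shared an intergenic H3K4me1 region at -35.2 to -31.5 kb, with total signals of 20455 and 9866 and maxima of 19 and 16, that no Oct4+ or Pdgfra+ library listed. Within 20 kb of the Nanog TSS, H3K4me1 covered 5.91, 19.5 and 5.51 kb in Oct4+, 0, 2.64 and 4.49 kb in DP and 0, 0 and 1.45 kb in Pdgfra+. The 3 Oct4+ values all lay above the 6 others, which came from peaks at the -5 kb element and, in DP replicate 3, from a peak that starts at 18.4 kb.

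Gdf3 carried the strongest H3K27ac outside Nanog on the Dppa3 side of the locus. The merged region from -102.9 to -97.4 kb covered the whole gene and its TSS, and was listed in 3 of 3 Oct4+ and 0 of 6 other libraries. Total signals were 33307, 34654 and 16022 and maxima 18, 18 and 13, at percentiles 98.1, 98.7 and 91.6 of the lists. The stretch common to all 3 libraries, from -99.6 to -97.5 kb, holds the printed window and ends just beyond the TSS. Gdf3 and Nanog were the 2 of the 5 genes whose promoters had H3K27ac in every Oct4+ library and nowhere else.

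H3K4me1 lay over Gdf3 in Oct4+ and DP libraries. All 3 Oct4+ libraries had a peak from -102.5 to -100.8 kb, over the 3′ end of the gene, with total signals of 6869, 11777 and 13395 and maxima of 7, 18 and 8. These peaks were nearer to the Apobec1 TSS and so were assigned to Apobec1. DP replicates 2 and 3 had H3K4me1 over the Gdf3 promoter, where no Oct4+ or Pdgfra+ library did: the peak of replicate 2 spanned -102.8 to -97.1 kb with a total of 42309, and that of replicate 3 spanned -98.9 to -97.4 kb with 6709. The peak of DP replicate 2 thus also covered the Oct4+ stretch, and that of replicate 3 lay apart from it. DP replicate 1 had no H3K4me1 peak at Gdf3. No H3K27me3 or H3K9me3 peak overlapped the acetylated region in any library.

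The Apobec1 promoter was free of listed peaks of all 4 marks in all 36 libraries, which for H3K27ac was the case at 46.6% of protein-coding promoters. Within the gene, 1 H3K27ac peak was listed, in Oct4+ replicate 2 at -122.4 to -118.7 kb (total signal 10493, maximum 7), and H3K4me1 was listed at -117.4 to -115.5 kb in Oct4+ replicates 1 and 2 (6061 and 9377, maxima 9 and 14). Oct4+ replicate 2 also had an H3K4me1 peak over the 3′ end of the gene, at -132.0 to -128.2 kb (total signal 13199, maximum 8).

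Dppa3 differed from Nanog and Gdf3 in that its promoter had no H3K27ac in any of the 9 libraries. A single H3K27ac peak touched the gene, in Oct4+ replicate 2 at -80.8 to -78.6 kb, with a total signal of 6892 and a maximum of 6. H3K4me1 was instead most extensive there in DP. Within 20 kb of the Dppa3 TSS it covered 1.79, 2.12 and 1.42 kb in Oct4+, 3.57, 18.4 and 9.77 kb in DP and 0 kb in each Pdgfra+ library. The 1.42 kb of Oct4+ replicate 3 came wholly from the edge of its peak over the 3′ end of Gdf3. That library had no other H3K4me1 peak in the window. The 3 populations did not overlap, with DP highest and Pdgfra+ lowest, but for Oct4+ replicate 3 the separation from Pdgfra+ rests on that edge. This order was lost when the lists were cut to equal peak numbers or to a common lowest signal, where both the Oct4+ and the Pdgfra+ mean were 0 kb (exact permutation p = 1 in each case).

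Inside this window the positions also differed. From -80.2 to -78.7 kb, within Dppa3, all 3 DP libraries and none of the others had H3K4me1, with total signals of 6411, 55576 and 9793 and maxima of 10, 27 and 9. Upstream of the TSS, at -83.6 to -82.2 kb, Oct4+ replicates 1 and 2 had narrow H3K4me1 peaks (5551 and 9505, maxima 14 and 24), and DP replicates 2 and 3 covered the same stretch. Between Dppa3 and Nanog, a region from -65.3 to -61.8 kb had H3K4me1 in 3 of 3 DP libraries alone, with total signals of 9473, 23782 and 9219 and maxima of 16, 27 and 18. It was 1 of 2 H3K4me1 regions in the locus, of 20, with a peak in every DP and no Oct4+ library, a pattern held by 5.25% of 26496 merged regions genome-wide.

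Polycomb methylation covered Dppa3 to differing extents. H3K27me3 ran from -91.8 to -72.4 kb in the merged region and was listed in 3 of 3 Oct4+, 2 of 3 DP and 2 of 3 Pdgfra+ libraries. In Oct4+ replicate 1 it was a peak of 2063 bases with a total signal of 8479 and a maximum of 7. Replicate 2 had a pair of peaks with totals of 35160 and 33193 and a maximum of 14 in each. In replicate 3 a single peak of 19311 bases had a total of 241854 and a maximum of 42, at percentile 96.7 of its list.

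The stretch from -79.7 to -77.6 kb, over the 3′ part of Dppa3, was under H3K27me3 in all 3 Oct4+ libraries, in DP replicate 2 and in no Pdgfra+ library. The Pdgfra+ peaks lay upstream, at -91.8 to -89.2 kb in replicate 2 and -91.5 to -87.6 kb in replicate 3, with maxima of 8 and 20. These and a peak of DP replicate 3 were nearer to the Gdf3 TSS, and were its only H3K27me3 peaks. Within 20 kb of the Dppa3 TSS the covered length was 2.06, 14.5 and 19.3 kb in Oct4+, 0, 12.8 and 3.73 kb in DP and 0, 2.54 and 3.88 kb in Pdgfra+, and the populations overlapped. Oct4+ replicate 3 came from a list of 5785 H3K27me3 peaks and replicate 1 from a list of 1629, and the longer list had the larger domain. The part of list length in this spread was not tested.

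All 16 H3K9me3 peaks of the locus were assigned to Dppa3, and they covered more in DP than in Oct4+. A region from -68.2 to -56.2 kb between Dppa3 and Nanog was listed in 2 of 3 Oct4+, 3 of 3 DP and 3 of 3 Pdgfra+ libraries. The widest peak had a total signal of 38543, 38857 and 42579 in the 3 DP replicates, at percentiles 98.9, 99 and 98.8 of their lists, with maxima of 13, 15 and 14. In Pdgfra+ the strongest peak of each replicate had 48542, 11394 and 28434, at percentiles 97.5, 67.8 and 95. In Oct4+ replicates 1 and 2 it had 9177 and 9662, at percentiles 68.4 and 60.6, and replicate 3 had none.

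Over the whole locus H3K9me3 covered 7.06, 3.57 and 0 kb in Oct4+, 10.6, 10.1 and 10.3 kb in DP and 9.44, 3.10 and 7.77 kb in Pdgfra+. All DP values were above all Oct4+ values, and the Oct4+ lists of this mark held 14160 to 29871 peaks beside 12701 to 26981 in the DP lists. The stretch in all 3 DP libraries, from -67.4 to -60.2 kb, was 51.2% soft-masked as repeats in the reference, against 39.9% of the locus and 36.4% of the genome, and it contained the H3K4me1 region seen in DP alone at -64.8 to -63.1 kb. A small H3K9me3 peak upstream of Dppa3, at -83.0 to -81.5 kb, was listed in Oct4+ replicates 1 and 2 only, with totals of 3801 and 4610 near the bottom of both lists (percentiles 1.71 and 0.0436). It met the Dppa3 promoter, as H3K9me3 did not at 95.2% of protein-coding promoters.

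**Figure D2:**
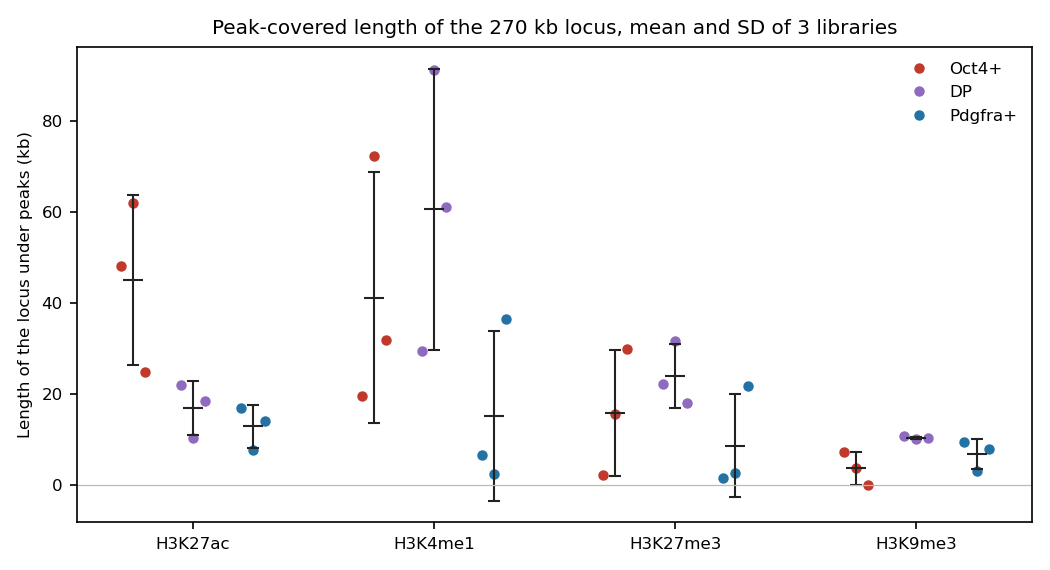
Length of the locus under peaks (kb) for each mark, with 1 point per library, coloured by population, and the mean and SD of 3 libraries in black. The 3 Oct4+ values for H3K27ac (24.9 to 61.8 kb) lay above all others, and the 3 DP values for H3K9me3 (10.1 to 10.6 kb) were the highest and closest together for that mark.

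Slc2a3 had the most peaks, and its H3K27ac was listed in all populations. Its principal promoter was under H3K27ac in 2 of 3 Oct4+, 3 of 3 DP and 3 of 3 Pdgfra+ libraries, where 6.47% of protein-coding promoters had a peak in all 9. The peak of Oct4+ replicate 3 began upstream of the promoter window, at 36.4 kb. The strongest peak of this region had a total signal of 8076, 25020 and 7729 in Oct4+, 41076, 18833 and 28800 in DP and 38672, 9731 and 51427 in Pdgfra+. Its percentile in the list was 48.9, 96.8 and 49.8 in Oct4+, 85.5, 55.1 and 60.2 in DP and 56.2, 15.7 and 76.1 in Pdgfra+.

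An intron of the long Slc2a3 isoform held the most constant element of the locus. From 54.8 to 57.8 kb an H3K27ac peak was present in all 9 libraries, at maxima of 16, 13 and 12 in Oct4+, 19, 10 and 24 in DP and 27, 10 and 21 in Pdgfra+. The peaks over it stood at percentiles 98.2, 98.6 and 96.1 in Oct4+, 56.1, 13.2 and 79.1 in DP and 60.9, 68.5 and 21 in Pdgfra+. The maxima overlapped between populations. The percentiles come from lists that differ in length and in their weakest peak, and were not compared between populations. H3K4me1 overlapped it in 2 of 3 Oct4+, 3 of 3 DP and 2 of 3 Pdgfra+ libraries. The merged region that holds it and the one around the principal Slc2a3 TSS, which begins at 29.5 kb, were the 2 of 18 merged H3K27ac regions in the locus with a peak in every library, a pattern found in 1.96% of 78963 merged regions.

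Next to it the acetylation became more restricted. From 62.1 to 65.0 kb H3K27ac was listed in 3 of 3 Oct4+, 1 of 3 DP and 1 of 3 Pdgfra+ libraries, while H3K4me1 at 62.3 to 67.1 kb was in all 3 DP libraries. Around the enhancer 60 kb downstream of Nanog, from 58 to 62 kb, H3K27ac was listed in 2 libraries of each population and H3K4me1 in 3 of 3 Oct4+, 3 of 3 DP and 1 of 3 Pdgfra+ libraries. Many of these were flanking peaks that only reached into the edge of this window. The position 60 kb itself was under H3K27ac in Oct4+ replicate 2 only, and under H3K4me1 in Oct4+ replicates 2 and 3 and DP replicate 2 only. At 102.0 to 105.3 kb, between Slc2a3 and Foxj2, H3K27ac was in 3 of 3 Oct4+, 2 of 3 DP and 1 of 3 Pdgfra+ libraries. The maxima were 34 and 41 in DP replicates 1 and 3, 15, 19 and 17 in Oct4+ and 23 in Pdgfra+ replicate 2, and are not scaled to depth. In their own lists these peaks stood at percentiles 70.3 and 66.2 in DP, 85.6, 91.9 and 59 in Oct4+ and 46.6 in Pdgfra+ replicate 2.

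The start of the long Slc2a3 isoform had H3K27ac listed in the same libraries as Nanog. At 92.2 to 95.6 kb all 3 Oct4+ libraries and no others had H3K27ac, with total signals of 7804, 11232 and 5922 and maxima of 8, 11 and 7, at percentiles 44.9, 79.4 and 8.14. These totals lay below the weakest peak of every DP list (13683 to 14586) and of Pdgfra+ replicates 1 and 3 (27115 and 28044). Only that of Oct4+ replicate 2 was above the weakest peak of Pdgfra+ replicate 2 (8736). H3K4me1 there was in none of the Oct4+ libraries, in DP replicates 2 and 3 (21784 and 14371) and in Pdgfra+ replicate 3 (10554).

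H3K4me1 within 20 kb of the Slc2a3 TSS had its highest mean in DP (15.8 kb, against 7.49 kb in Oct4+ and 6.01 kb in Pdgfra+). The populations overlapped, as DP replicate 1 (4.44 kb) lay below Oct4+ replicates 2 and 3 and Pdgfra+ replicate 3. Slc2a3 was the only gene of the 5 with a merged H3K4me1 region listed in all 9 libraries, as 0.476% of merged H3K4me1 regions were. The merged region ran from 18.4 to 40.3 kb across the principal TSS. Peaks of all 9 libraries shared only 0.03 kb of it, at 36.6 to 36.7 kb, upstream of that TSS. The stretch from 42.1 to 46.2 kb was listed in 3 of 3 DP libraries (total signals 9737, 28798 and 17657), in Pdgfra+ replicate 3 (9382) and in no Oct4+ library, and is the other of the 2 regions named above for DP. From 67.9 to 70.2 kb and from 77.7 to 79.2 kb H3K4me1 was likewise in 3 of 3 DP, 1 of 3 Pdgfra+ and 0 of 3 Oct4+ libraries. In DP replicate 2 a single peak of 29706 bases from 50.3 to 80.0 kb, with a total signal of 263956, joined these stretches. No H3K27me3 or H3K9me3 peak was listed within 20 kb of the Slc2a3 or the Nanog TSS in any library.

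**Figure D3:**
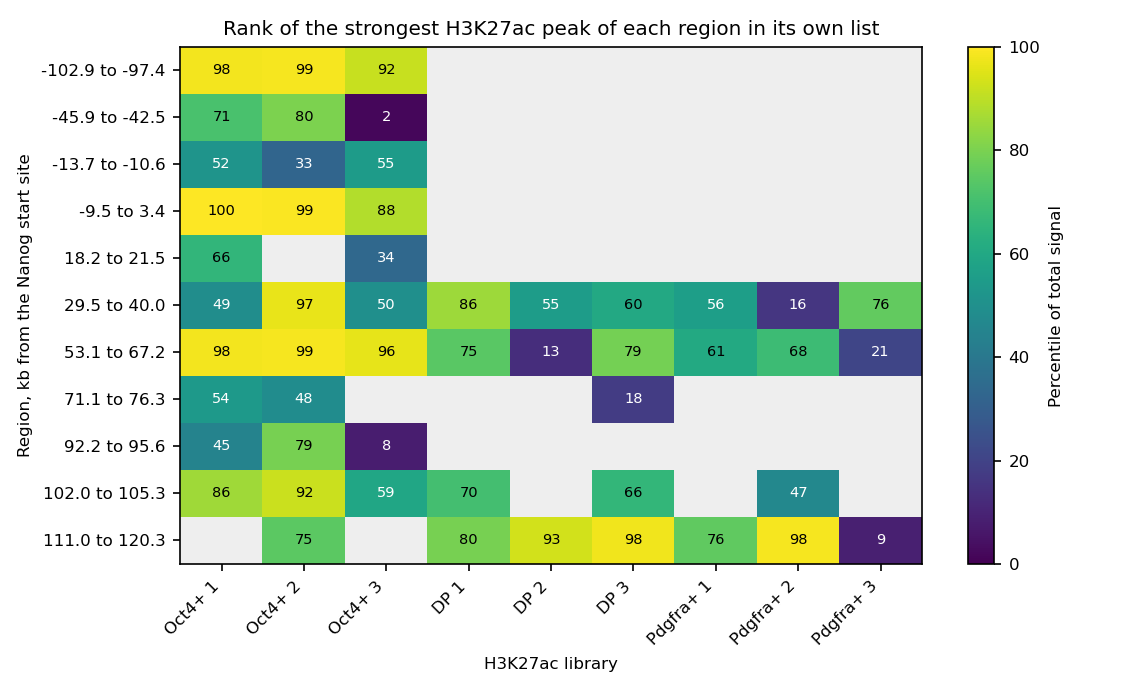
Percentile of the strongest H3K27ac peak of each merged region among the total signals of its own library's list (colour and number), for regions listed in at least 2 libraries. Rows are regions in kb from the Nanog TSS, columns are libraries, and grey means no listed peak. The regions at Gdf3 (-102.9 to -97.4 kb) and Nanog (-9.5 to 3.4 kb) ranked between 88 and 100 in every Oct4+ library and were grey in all others.

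The Foxj2 edge of the locus differed from its centre. The promoter of Foxj2, a forkhead factor gene, was at 112.3 kb and lay in an H3K27ac region listed in 1 of 3 Oct4+, 3 of 3 DP and 3 of 3 Pdgfra+ libraries. H3K27me3 at the same place was in 2 of 3 Oct4+, 3 of 3 DP and 0 of 3 Pdgfra+ libraries.

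Across the 270 kb, H3K27ac covered 48.0, 61.8 and 24.9 kb in Oct4+, 21.9, 10.2 and 18.4 kb in DP and 16.9, 7.54 and 13.9 kb in Pdgfra+. All Oct4+ values were above all others, with means of 44.9 ± 18.7, 16.8 ± 6.01 and 12.8 ± 4.79 kb (SD, n = 3). H3K4me1 averaged 41.1 ± 27.6, 60.5 ± 31.0 and 15.1 ± 18.6 kb, and H3K27me3 15.8 ± 13.9, 23.9 ± 7.05 and 8.54 ± 11.3 kb (SD, n = 3), with overlapping populations. At equal peak numbers the H3K27me3 means were 12.5, 0 and 0.506 kb, so DP went from the highest mean to no listed peak in the locus, while for H3K4me1 they were 18.3, 27.3 and 9.52 kb. When every H3K27ac list was reduced to its 3079 peaks of highest total signal, the Oct4+ mean exceeded the Pdgfra+ mean by 12.8 kb in place of 32.1 kb, and when all lists were held to the same lowest total signal (28044) by 3.47 kb.

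Merging the 9 libraries gave 18 H3K27ac regions in the locus, and 5 of them were in 3 of 3 Oct4+ and 0 of 6 other libraries, against 3.07% of 78963 regions genome-wide. These were Gdf3, the -45 kb element, the -12 kb element, the Nanog promoter with the -5 kb element, and the long Slc2a3 isoform start. At equal peak numbers 2 of the 5 were left, at Gdf3 and at Nanog. At the common threshold none was left, and Oct4+ replicate 3 then had no H3K27ac peak in the locus at all. No region of the 18 was in 3 of 3 Pdgfra+ and 0 of 3 Oct4+ libraries, where 0.189% were genome-wide.

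**Figure D4:**
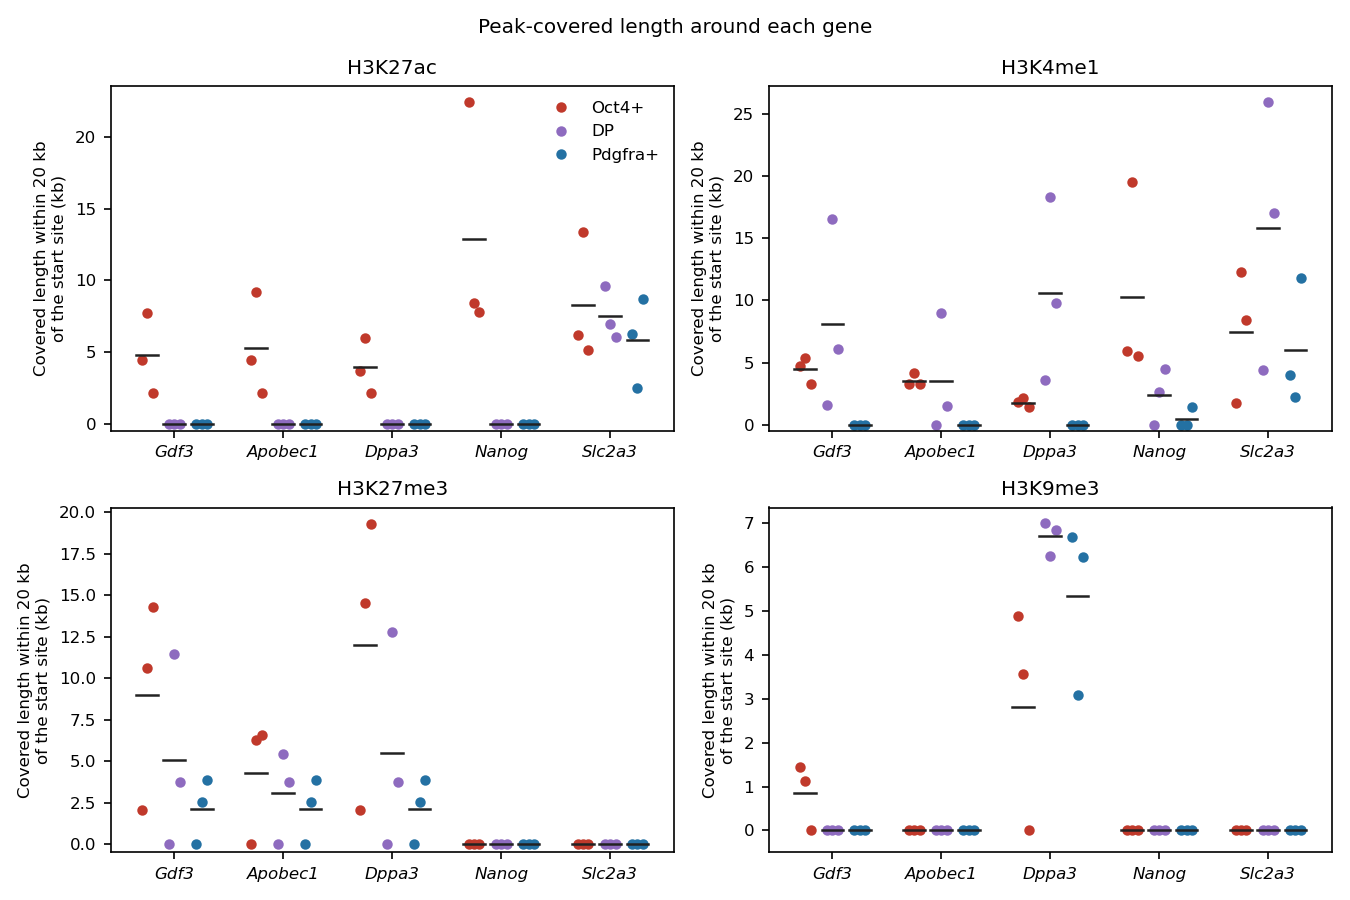
Length under peaks within 20 kb of the TSS of each gene (kb), with 1 point per library, coloured by population, and the mean as a black line, in 1 panel per mark. H3K27ac was at 0 kb in all DP and Pdgfra+ libraries around Gdf3, Apobec1, Dppa3 and Nanog and overlapped between populations at Slc2a3.

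The 3 populations were compared for each gene by the length under peaks within 20 kb of the TSS, with an exact permutation test over all 1680 assignments of the 9 libraries of a mark, adjusted over all protein-coding genes with a peak in the window. For H3K27ac the Oct4+ libraries had 22.4, 8.42 and 7.82 kb at Nanog, 4.47, 7.72 and 2.16 kb at Gdf3, 4.47, 9.16 and 2.16 kb at Apobec1 and 3.71, 5.96 and 2.16 kb at Dppa3, and every DP and Pdgfra+ library had 0 kb. The windows of the last 3 genes overlap, and the Gdf3 peak accounts for most of what Apobec1 and Dppa3 show. With 0 kb in every DP and Pdgfra+ library, 0.0357 is the smallest p that the exact permutation test could give at the 4 genes. At that p a gene could pass the adjustment only if most genes of the family had a p as low. The adjusted p therefore cannot decide for these 4 genes. Each of the 4 genes had an exact p of 0.0357 and an adjusted p of 0.591, and so did not pass (unadjusted 0.0357 also at equal peak numbers and 0.25 at the common threshold), in a family of 17426 genes in which 6.63% had an unadjusted p under 0.05 and 0% an adjusted p under 0.05. Every Oct4+ library was above every Pdgfra+ library at these 4 genes, as at 11.8% of genes, and above every DP library, as at 6.05%. At Slc2a3 the values were 6.20, 13.4 and 5.14 kb in Oct4+, 9.63, 6.96 and 6.02 kb in DP and 6.25, 2.52 and 8.66 kb in Pdgfra+, which overlapped (exact permutation p = 0.675, adjusted p = 1).

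For H3K4me1, Dppa3 reached the smallest p that the test can give (exact permutation p = 0.00357, adjusted p = 0.686) and Nanog an exact p of 0.0143 (adjusted p = 0.686). Neither was kept at equal peak numbers or at the common threshold, with an exact permutation p of 1 for Dppa3 and 0.25 for Nanog under both. Over all 11223 genes 5.77% were under 0.05 before adjustment and 0% after it. Every DP library was above every Oct4+ library at Dppa3, as at 5.79% of genes, and above every Pdgfra+ library at Dppa3 and Gdf3, as at 5.08%. Every Oct4+ library was above every Pdgfra+ library at Gdf3, Apobec1, Dppa3 and Nanog, as at 8.74%, and above every DP library at Nanog, as at 3.74%. The windows of Gdf3, Apobec1 and Dppa3 overlap here too, so these are not separate results. In Oct4+ replicate 3 a single peak over the 3′ end of Gdf3 gave all the length at Gdf3, Apobec1 and Dppa3. The values tested at Dppa3 include it. In DP replicate 1 the length at Gdf3 (1.59 kb) came from the peak within Dppa3. At Slc2a3, H3K4me1 covered 1.75, 12.3 and 8.41 kb in Oct4+, 4.44, 26.0 and 17.1 kb in DP and 4.03, 2.23 and 11.8 kb in Pdgfra+, which also overlapped (exact permutation p = 0.271, adjusted p = 0.831).

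The repressive marks gave no lower values. H3K27me3 around Dppa3 had an exact permutation p of 0.254 (adjusted p = 0.649), in a family of 8149 genes with 7.22% under 0.05 before adjustment. H3K9me3 around Dppa3 had 4.89, 3.57 and 0 kb in Oct4+, 7.01, 6.26 and 6.85 kb in DP and 6.69, 3.10 and 6.23 kb in Pdgfra+, with an exact permutation p of 0.0786 (adjusted p = 0.478), where 12.7% of 9857 genes were under 0.05 before adjustment. Every DP library was above every Oct4+ library there, as at 8.21% of genes. No protein-coding gene passed the adjusted threshold of 0.05 for any mark, and the counts at an unadjusted p under 0.05 were 1156 (H3K27ac), 648 (H3K4me1), 588 (H3K27me3) and 1252 (H3K9me3). With 9 libraries per mark the smallest exact permutation p is 0.00357. A gene could pass only if a large number of genes reached it, so the lack of passing genes decides nothing for a single gene.

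Other genes of pluripotency and endoderm were read in the same way. Of 25 pluripotency genes 24 had H3K27ac in the window, and 8 had an unadjusted exact permutation p under 0.05, all with the Oct4+ mean above the Pdgfra+ mean, as 6.12% of all genes had, and none passed after adjustment. Their median difference between the Oct4+ and Pdgfra+ means was 5.44 kb, beside 1.89 kb over all genes tested. Klf2, a Kruppel-like factor of naive pluripotency, had means of 25.5, 5.05 and 0.810 kb in Oct4+, DP and Pdgfra+. Of 19 endoderm genes with a peak, 2 had an unadjusted p under 0.05, both higher in Pdgfra+, as 0.505% of all genes, and the median difference was -4.22 kb. For H3K27me3 the direction at endoderm genes was the opposite, with 9 of 15 under an unadjusted p of 0.05 and higher in Oct4+, as 2.88% of all genes. Of 10 fibroblast genes 5 had H3K27ac in the window and none an unadjusted p under 0.05. Their summed length was 12.7, 25.0 and 0 kb in the Oct4+ replicates, 0 to 4.54 kb in DP and 0 kb in Pdgfra+. Oct4+ replicate 3, at 0 kb, had the shortest Oct4+ list of this mark, with 8574 peaks. A contribution of feeder cells to the Oct4+ lists was not tested.

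The profile of covered length over all 36 libraries was compared with that of every protein-coding gene on another chromosome. The highest Pearson correlations were with Schip1 (0.94), Fcgr2b (0.93) and Twistnb (0.93) for Nanog, and with Bach1 (0.95), Vwa7 (0.95) and Gna13 (0.94) for Slc2a3. For Gdf3 they were Pde1b (0.87), Fgfr2 (0.85) and Eps8l1 (0.84), for Dppa3 Spock1 (0.83), Cyp26a1 (0.81) and Cyp26c1 (0.79), and for Apobec1 Cavin3 (0.83), Bcar3 (0.82) and Hic1 (0.82). Among the 5 genes, Nanog correlated with Slc2a3 at 0.38, with Gdf3 at 0.23 and with Dppa3 at -0.03. The 36 points share marks and libraries, and the high values at Gdf3, Apobec1 and Dppa3 (0.66 to 0.90) rest on windows that overlap.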

How the data were processed

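CUT&Tag peak lists of 36 libraries (4 marks, 3 populations, 3 replicates) were analysed, and the 3 IgG samples were not used here. The authors called the deposited peaks with SEACR in stringent mode for each library against IgG, from fragment coverage. Each deposited peak carries its total signal and maximum signal, whole numbers that are not scaled to depth. The submitters' processing notes name bcl2fastq 2.19.1, Bowtie2, SAMtools 1.12, deepTools, bedtools 2.26.0 and the build mm10, so coordinates were read in GRCm38 with GENCODE M21. Where no peak was listed, the mark may still be present.

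Python 3.11.15 with NumPy 2.4.6 was used, and figures were drawn with Matplotlib 3.10.9. A gene's TSS was that of its principal protein-coding transcript. Lengths within 20 kb of the TSS were tested over all assignments of the 9 libraries to populations (exact permutation of the F statistic, two-sided), with a smallest p of 0.00357 and Benjamini-Hochberg adjustment over genes. Pairs of populations (3 against 3, smallest p 0.10) were not tested. The test was checked on simulated data. Regions are peaks of 9 libraries merged at 1 shared base. Promoters ran from 1000 bases upstream to 100 downstream. Genes, lists and members were chosen with earlier results of these data known. Named genes were the 5 of the locus, at most 4 per list whose p was the smallest possible, markers, and the 3 most correlated genes per member. Alternatives were equal peak numbers, a common threshold, other windows, TSSs and assignment rules, a replicate block, and each library left out. Peaks beyond the 3′ end of Apobec1 are in the totals but are otherwise not reported here.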

Additional observations from a re-analysis of the deposited data

How the results depend on the processing

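The excess of H3K27ac in Oct4+ over Pdgfra+ across the locus was 32.1 kb. It was 12.8 kb at equal peak numbers and 3.47 kb at a common threshold of total signal, and 23.6 to 42.1 kb when single libraries were left out. The count of 5 H3K27ac regions in Oct4+ alone became 2 and 0 under the same settings, which were applied to this count after seeing the data, and 5 to 6 when single libraries were left out. The 25 peaks assigned to Nanog became 55 when the annotated gene start served as TSS, since Slc2a3 then starts at 94.1 kb.

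Differences between Oct4+ and Pdgfra+ that changed sign were those near Slc2a3 for H3K27ac (2.44 kb), to -0.50 kb at equal peak numbers, -3.79 kb at the common threshold, -1.43 kb within 5 kb, and -0.14 to 3.99 kb with libraries left out, the lowest without Oct4+ replicate 2. For H3K4me1 near Slc2a3 (1.47 kb) the values were -1.89 kb at equal peak numbers, -0.077 kb within 5 kb, -1.44 kb with the gene start as TSS, and -0.94 to 4.36 kb with libraries left out, negative without Oct4+ replicate 2 (-0.94 kb) and without Pdgfra+ replicate 2 (-0.42 kb). H3K9me3 changed from 0.853 to -3.22 kb near Gdf3 within 50 kb and from -2.52 to 0.853 kb near Dppa3 within 5 kb. The larger and smaller windows take in or leave out the region at -68.2 to -56.2 kb.

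Libraries with the same replicate number did not deviate together throughout, so the numbers were not taken to pair the samples. With the replicate block, H3K27ac at Nanog, Gdf3, Apobec1 and Dppa3 had an exact permutation p of 0.111 each. That is the smallest p the block can give where every DP and Pdgfra+ library has 0 kb. For other values the smallest possible is 0.0278, and 0 genes passed after adjustment for any mark. At that floor a gene could pass only if most genes reached it, so this count decides nothing. For locus-wide and count results 133 alternative values moved by less than the SD between replicates, or by less than 1.5 times for counts, and 5 by more. Many of the 133 do not measure stability. The number of genes past the adjusted threshold was 0 in every setting, and leaving out a DP library cannot alter a difference between Oct4+ and Pdgfra+. For single genes, where no adjusted p passed under any setting, 11 of the differences changed sign. Several others moved far. At equal peak numbers and at the common threshold, H3K4me1 went from 1.78 kb near Dppa3, 4.45 kb near Gdf3 and 3.55 kb near Apobec1 to 0 kb each (exact permutation p = 1), and near Nanog from 9.83 to 1.78 and 4.67 kb. Across the locus H3K4me1 went from 26.0 to 8.77 and 18.5 kb and H3K27me3 from 7.24 to 12.02 and 3.28 kb. Leaving out Oct4+ replicate 1 lowered the H3K27ac difference near Nanog from 12.9 to 8.12 kb, and leaving out Oct4+ replicate 2 lowered that near Apobec1 from 5.27 to 3.32 kb and that of H3K4me1 near Nanog from 9.83 to 5.23 kb. For H3K27me3 near Dppa3 the difference of 9.83 kb was 6.16 kb without Oct4+ replicate 3 and 14.8 kb without replicate 1, near Gdf3 6.83 kb became 4.19 and 10.3 kb, and near Apobec1 2.14 kb became 0.999 and 4.27 kb. H3K9me3 went from -2.52 to -1.11 kb near Dppa3 without Oct4+ replicate 3, and near Gdf3 from 0.853 kb to 0.561 kb without Oct4+ replicate 1 and 1.28 kb without replicate 3. Locus-wide differences ranged from 10.5 to 36.9 kb for H3K4me1 (lowest without Oct4+ replicate 2), 0.199 to 14.1 kb for H3K27me3 (lowest without Oct4+ replicate 3) and -5.06 to -1.45 kb for H3K9me3 (without Pdgfra+ replicate 2 and Oct4+ replicate 3), with libraries left out. Depth is unknown, so weak marks below a list's lowest signal were not detectable.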
